A study of Sus scrofa with 4 samples.

Results

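Transcripts of 10 subunits of the anaphase-promoting complex (APC/C) were followed in mature porcine oocytes. The genes were taken by symbol from a table that holds values for 16050 genes, and each symbol matched 1 gene. They comprise 4 small subunits (ANAPC10, ANAPC11, ANAPC13 and CDC26) and 6 large ones (ANAPC1, ANAPC2, ANAPC4, ANAPC5, ANAPC7 and CDC27). A further 4 subunits, CDC16, CDC23, ANAPC15 and ANAPC16, were looked up to complete the complex. The oocytes came from slaughterhouse ovaries and were matured in vitro within their cumulus cells for 44 h. Control oocytes had no added Cu, and the other group was matured with Cu, supplied as copper sulfate, at 25 μg/mL, the concentration that the methods give for the study in general. Each library pooled 3 oocytes, which the methods call mature without naming a selection by polar body. In the paper, extrusion of the first polar body was less frequent at this concentration than in controls. Whether meiotic stage differed between the libraries was not tested. Of the 3 sets per group that the methods describe, 2 libraries per group were analysed here, Control 1 and 2 and the libraries labelled Cu 1 and 3. No label says whether they came from separate cultures, so p-values measure only the spread between these libraries, which may be technical. Groups are named as the labels give them, and no gene of the design serves as a check on those labels. For several genes outside the complex, the direction written in the study's text is the reverse of that in the deposited columns. Which of them is right could not be settled from the files, so every sign given here holds for the columns as labelled.

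The APC/C is the ubiquitin ligase that ends metaphase. Together with the coactivator CDC20 it marks securin and cyclin B for destruction by the proteasome, which frees separase to cut cohesin and lowers CDK1 activity. In oocytes it acts at the exit from the first meiotic division, and it is then held back by EMI2 (FBXO43), which keeps the egg at metaphase II until the sperm arrives. A cullin (ANAPC2) and a RING subunit (ANAPC11) form the catalytic core, a set of tetratricopeptide-repeat (TPR) proteins that includes CDC27, CDC16, CDC23 and ANAPC7 forms an arc that receives the coactivator, and ANAPC1, ANAPC4 and ANAPC5 form the platform that joins both parts.

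The deposited values are FPKM, fragment numbers divided by transcript length and by the mapped total, so levels of different genes can be set side by side per length. Summed over all genes they ran from 616082 to 672681 per library. This unit does not keep the number of reads, and sequencing depth is therefore unknown. Between 7923 and 9364 genes per library reached 1 FPKM, with the most in Cu 1. All 12 oocyte markers, among them ZP2, GDF9 and BMP15, had values, and 11 of them were at 1 FPKM or more in every library. Their summed level was 4379 and 5777 FPKM in Control 1 and 2, against 8004 and 5935 FPKM in Cu 1 and 3. Both Cu sums were the higher ones, that of Cu 3 by little. By mean log2(FPKM + 1), 10 of the 12 were higher and 2, ZP4 and DAZL, were lower in Cu. Of the 8541 genes tested below, 5494 were higher and 3047 were lower in this sense. Both Cu libraries exceeded both Control libraries for 4 markers (25.4% of the 8541 genes) and were below both for 0 (13.4%). For 8 markers the groups overlapped. The part of these marker levels in the results was not tested. Of 14 cumulus and granulosa markers 8 had values, with sums between 1.05 and 2.63 FPKM, and of 6 blood and immune markers only PTPRC had values, at most 0.32 FPKM. Reverse transcription was primed with oligo dT, so less mRNA and shorter poly(A) tails cannot be told apart, nor can fewer contributing oocytes and less RNA per oocyte.

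The subunit transcripts were present at very unequal levels per length. ANAPC15 and ANAPC7 were the most abundant, with means over the 4 libraries of 345 and 212 FPKM, and a group made up of ANAPC10, CDC26, ANAPC13, CDC27, ANAPC11 and ANAPC16 followed between 119 and 38.2 FPKM. CDC16 (21.0 FPKM), ANAPC1 (14.2 FPKM), ANAPC4 (6.31 FPKM) and ANAPC5 (2.75 FPKM) came next. CDC23 (0.19 FPKM) and ANAPC2 (0.01 FPKM) were close to 0. Of the 13 neighbouring pairs in this order, 7 kept the same order in all 4 libraries, and 4 had ranges that did not overlap, namely ANAPC16 above CDC16, ANAPC1 above ANAPC4, ANAPC5 above CDC23 and CDC23 above ANAPC2. In the other 9 pairs the ranges over the libraries overlapped. Of these, ANAPC7 over ANAPC10, CDC16 over ANAPC1 and ANAPC4 over ANAPC5 held in each library, while the order of the rest varied between libraries and that of CDC26 over ANAPC13 was found in 2 of 4. CDC23 and ANAPC2 lie near the rounding limit of 0.01 FPKM. In every library ANAPC7 was the highest and ANAPC5 the lowest of the chosen subunits other than ANAPC2, and the highest exceeded the lowest 185-fold in Control 1, 34.2-fold in Control 2, 39.5-fold in Cu 1 and 182-fold in Cu 3. Summed over the 10 genes, the transcripts made up between 0.0823% (Cu 1) and 0.124% (Cu 3) of all FPKM.

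**Figure D1:**
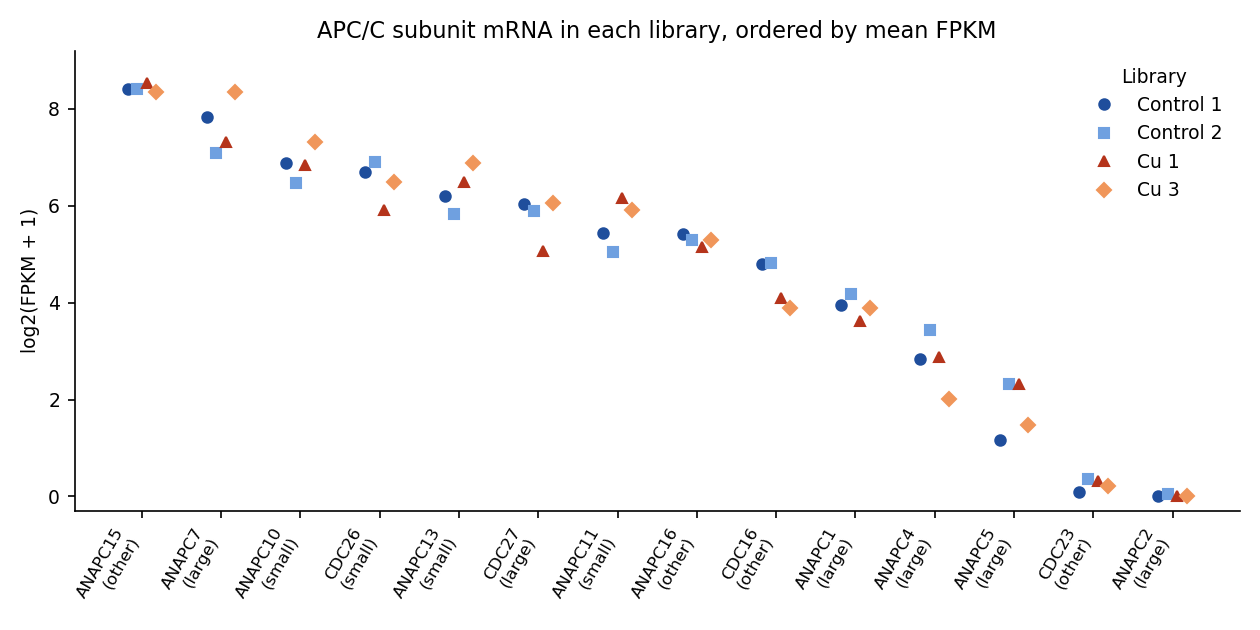
Level of 14 APC/C subunit transcripts, log2(FPKM + 1) on the vertical axis, ordered by mean FPKM; each point is 1 library, and the words under the names mark the 4 small, the 6 large and the 4 other subunits. ANAPC15 and ANAPC7 lie at the top with means of 345 and 212 FPKM, and CDC23 and ANAPC2 lie close to 0 in every library.

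For the comparison of the libraries labelled Cu with Control, differences are given on the log2(FPKM + 1) scale, which makes differences of weakly expressed genes smaller. They were tested with limma's moderated test over the 8541 genes that reached 1 FPKM in 2 libraries or more, with Benjamini-Hochberg adjustment over all of them. Of the 10 chosen subunits 9 entered the test, each with more than 1 FPKM in all 4 libraries, and ANAPC2 did not. An adjusted p of 0.05 was passed by none of the 9, and by 0% of all tested genes, with adjusted p values from 0.682 to 0.953 in limma's test. At an unadjusted p of 0.05, 1 of the 9, ANAPC11, was higher with Cu and 0 were lower, where 5.58% of all tested genes were higher and 1.43% lower. Which subunits passed this limit depended on the libraries and the scaling. Without Cu 1 they were 5 (ANAPC10, ANAPC11, ANAPC13, ANAPC4 and ANAPC7, in a fit with 1324 genes past it), and without Cu 3 they were 3 (ANAPC11, CDC26 and CDC27, with 2958 genes past it). Quantile normalization left ANAPC4 alone, and no subunit passed without Control 1, without Control 2, after scaling to equal sums of FPKM, after median-of-ratios scaling or without the variance trend. Each Cu library exceeded each Control library for 2 of the 9 (25.4% of all tested genes) and was below each for 2 (13.4% of all tested genes). For the other 5 the groups overlapped. The median difference was 0.16 over the 9 subunits and 0.16 over all tested genes. Quantile normalization and median-of-ratios scaling moved the median of all genes to -0.05 and -0.04. Relative to the median of all genes, the differences of the 9 ran from -0.85 (ANAPC4) to 0.64 (ANAPC11). For a single gene in 2 libraries per group, 0.333 is the smallest p that an exact permutation test (two-sided) allows.

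**Figure D2:**
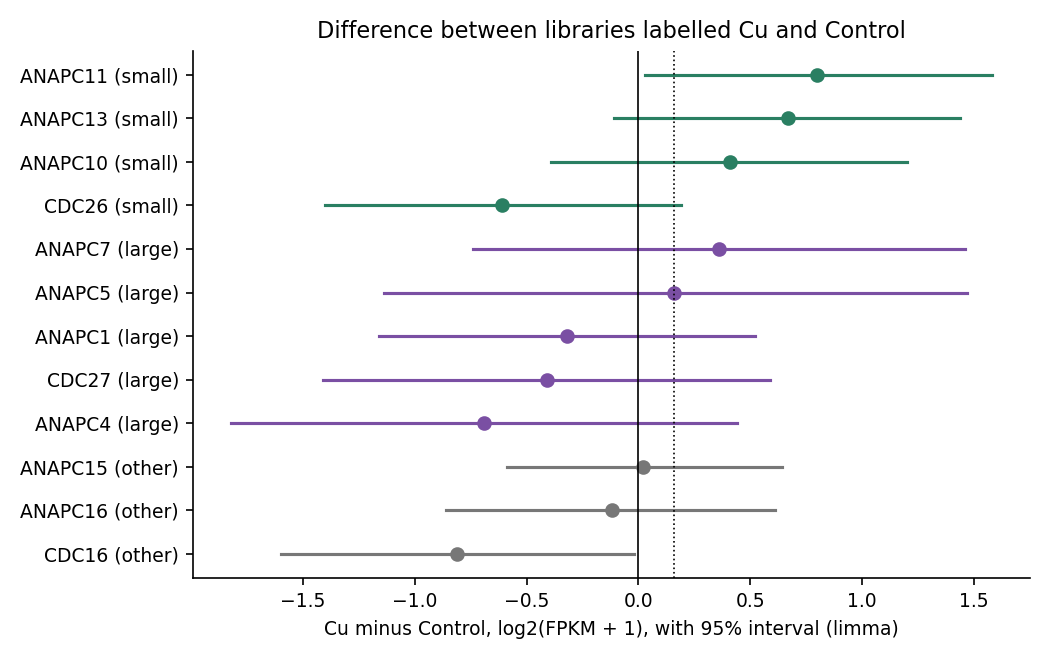
Difference between the libraries labelled Cu and Control for the 12 tested APC/C subunits, in log2(FPKM + 1), with points for limma's estimate and bars for its 95% interval; green is small, purple is large and grey is other subunits, and the dotted line is the median of all tested genes (0.16). The interval of ANAPC11 begins just above 0 (0.03), that of CDC16 ends just below it (-0.02), and the other 10 include 0.

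The catalytic core and the coactivator's partner ANAPC10 are taken first. ANAPC11 (identifier 100620851, chromosome 12, 1095091 to 1099233 in Sscrofa11.1) binds the ubiquitin-conjugating enzyme. It had 42.1 and 32.1 FPKM in Control 1 and 2, against 71.0 and 59.6 FPKM in Cu 1 and 3. The Cu libraries were the higher pair, and the gap between the groups was larger than the gap within either. The difference was 0.80 (standard error 0.32, 95% interval 0.03 to 1.58), with limma's unadjusted p at 0.0444 and its adjusted p at 0.682. It was 0.64 above the median of all tested genes. Over 10 alternatives limma's unadjusted p ran from 0.00845 to 0.308 and its adjusted p from 0.044 to 1.0. The authors' means, which are not the means of the 2 libraries per group used here, were 38.8 FPKM for Control and 58.6 FPKM for Cu. When Cu 3 was left out, the difference of ANAPC11 was 0.93 and passed the adjusted test (adjusted p = 0.044 in limma's test), in a fit that called 1755 of the 8541 genes. The single Cu library is there assumed to vary as the Control libraries do.

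ANAPC10 (identifier 100415930, chromosome 8, 83353217 to 83497570), which helps the coactivator to bind the destruction box of a substrate, had 117 and 87.1 FPKM in Control 1 and 2, against 114 and 158 FPKM in Cu 1 and 3. Cu 1 lay between the Control libraries, so the groups overlapped, and the difference of 0.41 (standard error 0.32, 95% interval -0.39 to 1.20) did not pass the test. It ran from 0.17 to 0.64 when a library was left out. The cullin ANAPC2 (identifier 100621019), to which ANAPC11 binds, was listed at 0 in Control 1, Cu 1 and Cu 3 and at 0.04 FPKM in Control 2. It is not placed on a chromosome in the RefSeq table of Sscrofa11.1, and no fold change is given for it. A value of 0 in such a table can also be a failed estimate, and here it belongs to the cullin of the catalytic core. The RING subunit and its cullin partner had very different values in the same libraries.

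Of the other small subunits, which hold the TPR arc together, ANAPC13 and CDC26 had differences of opposite sign, neither of which passed the test. ANAPC13 (identifier 100415776, chromosome 13, 75599797 to 75605667) had 72.3 and 55.9 FPKM in Control 1 and 2, against 88.5 and 117 FPKM in Cu 1 and 3. Both Cu libraries were higher than both Control libraries, with a difference of 0.67 (standard error 0.32, 95% interval -0.11 to 1.44) that did not pass the adjusted test (adjusted p = 0.708 in limma's test). CDC26 (identifier 100621961, chromosome 1, 253893666 to 253906659), which binds CDC16, had 103 and 119 FPKM in Control 1 and 2, against 59.1 and 88.6 FPKM in Cu 1 and 3. It was the only small subunit with both Cu libraries below both Control libraries, and its difference was -0.61 (standard error 0.33, 95% interval -1.40 to 0.19, adjusted p = 0.728 by limma). Without Cu 3 the difference of CDC26 was -0.89, and without Cu 1 it was -0.32, each in a fit that rests on 1 Cu library. The authors' means were 80.5 and 94.4 FPKM for ANAPC13 and 89.3 and 71.1 FPKM for CDC26, in Control and Cu, which gives differences of 0.23 and -0.32. The Control mean of ANAPC13 lies above both Control libraries used here, and that of CDC26 lies below both. The authors' means thus draw on values not shown per library. If each is a plain mean of the 3 sets that the methods describe, the unlisted Control value of ANAPC13 would exceed Cu 1. That of CDC26 would lie below both Cu libraries. On that reading the groups would overlap for ANAPC13 and for CDC26.

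In the TPR arc, CDC27 and ANAPC7 differed more between the Cu libraries than between the groups. CDC27 (identifier 100517185, chromosome 12, 16810868 to 16882271), which docks the tail of the coactivator, had 64.9 and 58.3 FPKM in Control 1 and 2, against 32.4 and 65.6 FPKM in Cu 1 and 3. Only Cu 1 was below the Control libraries. In fits that rest on 1 Cu library, the difference of -0.41 (standard error 0.41, 95% interval -1.41 to 0.59) became 0.09 without Cu 1 and -0.90 without Cu 3. Its direction rested on Cu 1. ANAPC7 (identifier 100155743, chromosome 14, 31744729 to 31789750) had 228 and 136 FPKM in Control 1 and 2, against 158 and 325 FPKM in Cu 1 and 3. Here Cu 3 was the highest library and Cu 1 lay between the Control libraries. The difference of 0.36 (standard error 0.45, 95% interval -0.74 to 1.46) became -0.16 without Cu 3 and -0.01 without Control 2.

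The platform subunits were less abundant than the small subunits and showed no difference that passed the test. ANAPC1 (identifier 100519830, chromosome 3, 44483961 to 44605035), the largest subunit, had 14.5 and 17.2 FPKM in Control 1 and 2, against 11.3 and 13.7 FPKM in Cu 1 and 3. Both Cu libraries were below both Control libraries, by little, with a difference of -0.32 (standard error 0.34, 95% interval -1.16 to 0.52) that ran from -0.45 to -0.19 when a library was left out. ANAPC4 (identifier 100518619, chromosome 8, 19301253 to 19341463) had 6.14 and 9.76 FPKM in Control 1 and 2, against 6.34 and 3.02 FPKM in Cu 1 and 3. The lowest value was that of Cu 3, and Cu 1 lay between the Control libraries. The difference of ANAPC4 was -0.69 (standard error 0.46, 95% interval -1.82 to 0.44). It was -0.26 without Cu 3, -0.39 without Control 2 and -1.12 without Cu 1. ANAPC5 (identifier 100152087, chromosome 14, 31259695 to 31306434) had 1.23 and 3.97 FPKM in Control 1 and 2, against 3.99 and 1.79 FPKM in Cu 1 and 3. Each group held a high and a low library, and the difference of 0.16 (standard error 0.53, 95% interval -1.14 to 1.47) took the opposite sign after quantile normalization (-0.10) and after median-of-ratios scaling (-0.02). Its sign also turned without Control 1 (-0.41) and without Cu 1 (-0.25). ANAPC5 and ANAPC7 lie 438 kb apart on chromosome 14, the closest pair among the placed subunit genes, and their levels were those of the least and the most abundant of the 9.

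The small subunits were then set against the large ones. On the log2(FPKM + 1) scale the 4 small subunits had mean levels of 6.30 and 6.06 in Control 1 and 2 and 6.35 and 6.65 in Cu 1 and 3, and the 6 large subunits had 3.64 and 3.83 in Control 1 and 2 and 3.53 and 3.63 in Cu 1 and 3. The level of the small minus that of the large subunits was 2.67 and 2.23 in Control 1 and 2 and 2.82 and 3.02 in Cu 1 and 3. The Cu libraries were the higher pair, by 0.15 for the nearest pair of libraries. The difference between the group means was 0.47, beside a pooled SD within groups of 0.24 (n = 2 libraries in each group). It was the sum of 0.32 higher levels of the small subunits and 0.15 lower levels of the large ones. Since it is a score over chosen genes, it has no p-value. It was between 0.26, without Control 2, and 0.69, without Control 1, when a library was left out. From the authors' means it was 0.34. Without ANAPC2 among the large subunits it was 0.50. The small subunits did not share a direction, as CDC26 was lower with Cu in both libraries. The median difference was 0.54 over the 4 small and -0.32 over the 5 tested large subunits, beside 0.16 over all tested genes. Small and large genes outside the APC/C were not compared in this way. Whether the contrast is particular to the APC/C was therefore not tested.

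**Figure D3:**
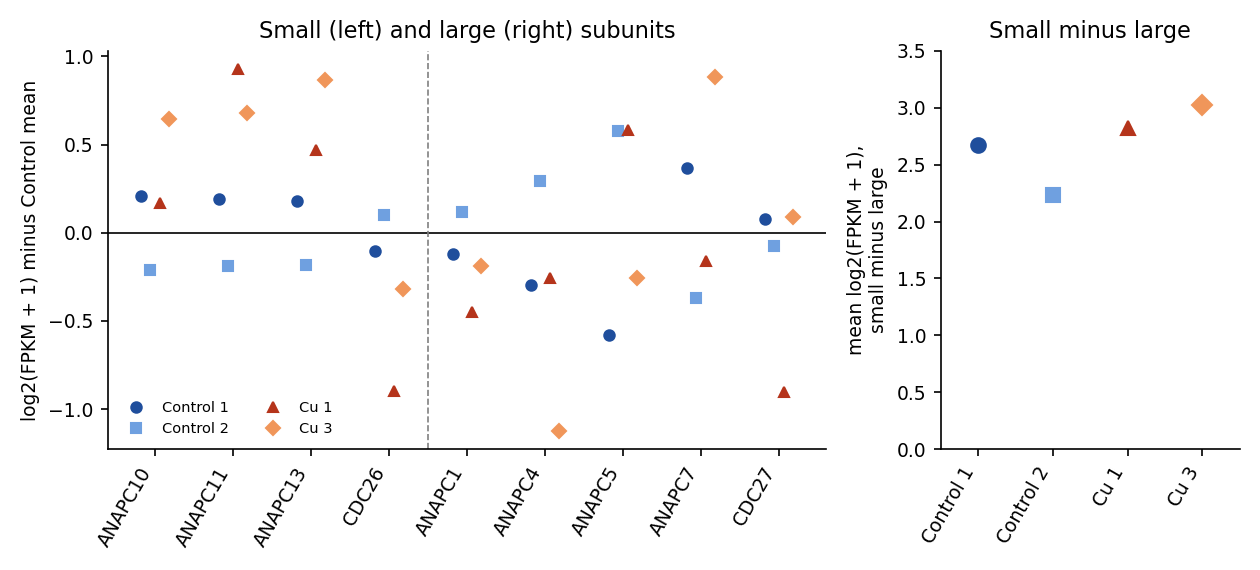
Left, log2(FPKM + 1) of each tested subunit minus its Control mean, with 1 point per library and small subunits left of the dashed line; right, mean log2(FPKM + 1) of the 4 small minus that of the 6 large subunits in each library. ANAPC11 and ANAPC13 have both Cu points above both Control points, CDC26 and ANAPC1 have both below, and the small minus large values are 2.67 and 2.23 in Control and 2.82 and 3.02 in Cu.

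Over the 9 tested subunits, the gap between the Cu libraries was larger than the gap between the Control libraries in 7, with medians of 0.57 and 0.38 on the log2 scale. Over all tested genes this was so for 70.5%, with medians of 0.56 and 0.27.

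Of the 4 subunits looked up beside these, CDC16, a TPR protein and the partner of CDC26, had 26.7 and 27.3 FPKM in Control 1 and 2, against 16.2 and 13.9 FPKM in Cu 1 and 3. Both Cu libraries were below both Control libraries, which were nearly equal. The difference was -0.81 (standard error 0.32, 95% interval -1.60 to -0.02), with limma's unadjusted p at 0.0455 and its adjusted p at 0.685. The authors' means were 23.5 FPKM for Control, below both Control libraries used here, and 15.3 FPKM for Cu. From these means the difference was -0.59. The unadjusted limit was missed without Control 1 (-0.82) and without Control 2 (-0.79). ANAPC15, which promotes the release of checkpoint proteins from the complex, had 341 and 342 FPKM in Control 1 and 2, against 371 and 324 FPKM in Cu 1 and 3, a difference of 0.02 (95% interval -0.59 to 0.64) whose sign turned under each scaling run. ANAPC16 had between 34.6 and 41.5 FPKM in the 4 libraries, a difference of -0.12 (95% interval -0.86 to 0.61). CDC23, the remaining TPR subunit, was between 0.07 and 0.28 FPKM and was not tested.

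The 4 lists of genes around the APC/C held 37 genes together, of which 36 were listed with values and 35 were tested. UBE2E1 had no values used here and REC8 was not tested. An adjusted p of 0.05 was passed by none. At an unadjusted p of 0.05, 1 was higher and 4 were lower (5.58% and 1.43% of all tested genes), and each Cu library was above each Control library for 7 (25.4% of all tested genes) and below each for 9 (13.4% of all tested genes). The median difference of the 35 was 0.04.

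Both coactivators overlapped between the groups. CDC20, which drives the exit from metaphase, had 76.1 and 103 FPKM in Control 1 and 2, against 119 and 44.2 FPKM in Cu 1 and 3. FZR1, the other coactivator, was between 2.13 and 5.95 FPKM. Of the 5 tested ubiquitin-conjugating enzymes, 1 was higher and 1 was lower at an unadjusted p of 0.05. UBE2C, the enzyme that starts ubiquitin chains on APC/C substrates, had 838 and 1012 FPKM in Control 1 and 2, against 2137 and 1822 FPKM in Cu 1 and 3. Its difference was 1.10 (standard error 0.25, 95% interval 0.49 to 1.70), with limma's unadjusted p at 0.00435 and its adjusted p at 0.631. UBE2D3, of a family that can take the same role in vitro, had 1776 and 1678 FPKM in Control 1 and 2, against 935 and 1155 FPKM in Cu 1 and 3, a difference of -0.73 (standard error 0.24, limma's adjusted p = 0.656). UBE2S, which lengthens the chains, was between 0.91 and 5.19 FPKM, and its groups overlapped. From the authors' means the difference was -0.33 for UBE2D3 and 0.96 for UBE2C. The UBE2D genes are close copies, so reads could be divided among them. The unadjusted limit was missed without Control 1 for UBE2C (0.96), and without either Control library, without the filter and without the variance trend for UBE2D3. Without Cu 3 the difference was 1.21 for UBE2C and -0.88 for UBE2D3, in a fit that rests on 1 Cu library.

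Of the 9 inhibitor and checkpoint genes, all tested, 0 passed an unadjusted p of 0.05. The groups did not overlap for 5 of them, with 4 higher (FBXO5, MAD2L1BP, BUB3 and TTK) and BUB1B lower in the libraries labelled Cu, where 25.4% of all tested genes were higher and 13.4% lower in this sense. FBXO43, the EMI2 gene, had 28.3 and 33.9 FPKM in Control 1 and 2, against 26.4 and 38.4 FPKM in Cu 1 and 3. The list of 20 substrate and cohesion genes also holds BTG4, for which no such role is given here. Of the 20 genes 19 were tested, with a median difference of -0.10. Among these, 3 were lower at an unadjusted p of 0.05 (1.43% of all tested genes) and 0 were higher (5.58%). Both Cu libraries were below both Control libraries for 7 (13.4% of all tested genes) and above them for 1 (25.4%). CCNB1, cyclin B1, had 1666 and 1433 FPKM in Control 1 and 2, against 794 and 901 FPKM in Cu 1 and 3, a difference of -0.87 (standard error 0.24; by limma, unadjusted p = 0.0114 and adjusted p = 0.641). The other genes below the unadjusted limit were SKP2, an APC/C substrate and a subunit of another ubiquitin ligase (-1.43), and BTG4, an adaptor of mRNA deadenylation (-0.57). Without either Control library none of these 3 passed the unadjusted limit, and BTG4 also missed it under 6 further alternatives. Without Cu 3 the differences were -0.96 for CCNB1 and -1.62 for SKP2, and without Cu 1 they were -0.78 and -1.25. Each of these fits rests on 1 Cu library. From the authors' means the differences were smaller, at -0.37 for CCNB1, -0.74 for SKP2 and -0.33 for BTG4. PTTG1, securin, was far more abundant, with 15963 and 13481 FPKM in Control 1 and 2, against 12701 and 17345 FPKM in Cu 1 and 3, and did not separate the groups.

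**Figure D4:**
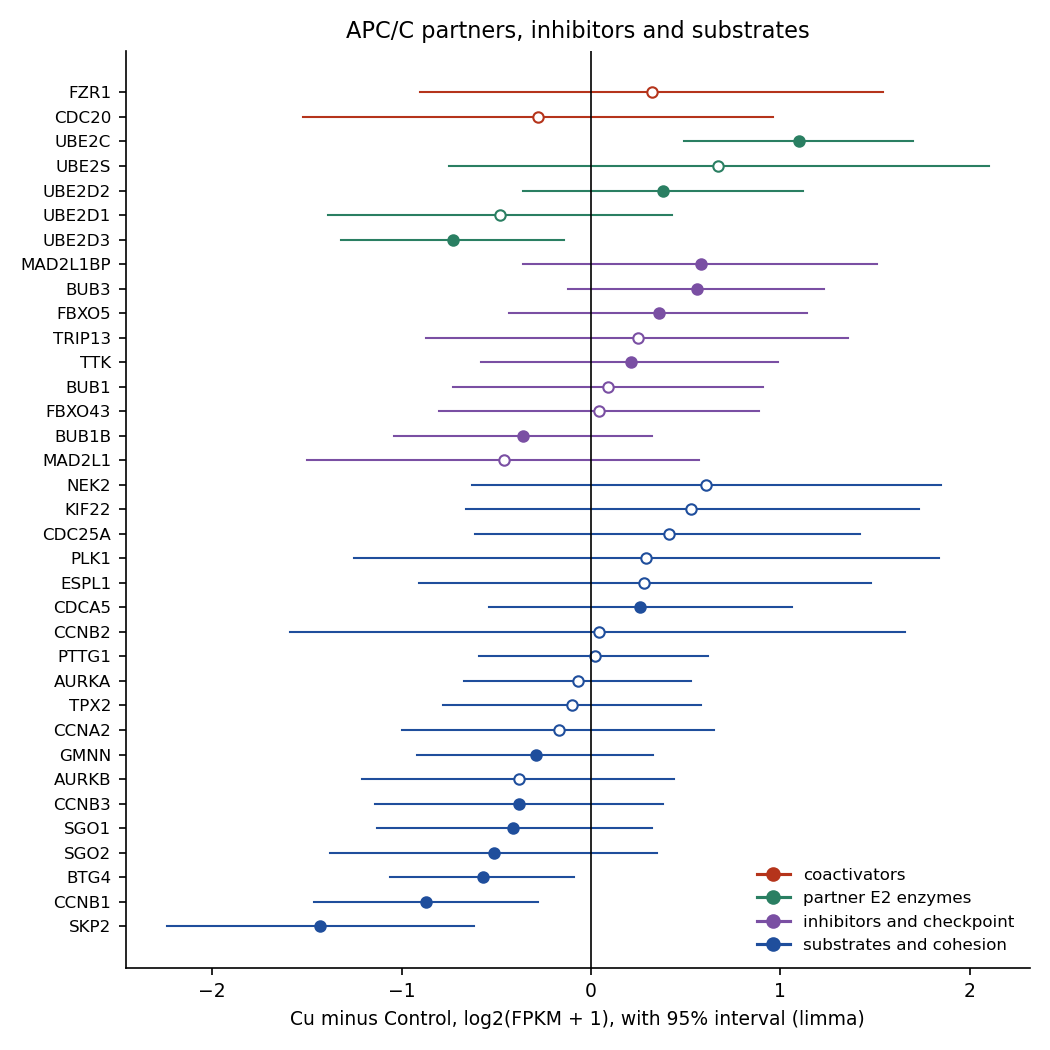
Difference between the libraries labelled Cu and Control for the 35 tested genes of the lists around the APC/C, in log2(FPKM + 1), with limma's estimate and 95% interval. Colours are the 4 lists, and filled points mark genes whose groups did not overlap. UBE2C lies above 0 (1.10), UBE2D3, BTG4, CCNB1 and SKP2 lie below it with intervals that end under 0, and the other intervals include 0.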

How the data were processed

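Polyadenylated RNA was amplified by Smart-seq2 and sequenced. The authors deposited FPKM to 2 decimals, with a mean for each group. According to the methods, reads were filtered with SOAPnuke, mapped with HISAT2 and Bowtie2, and quantified with RSEM. The submitters' processing notes instead name TopHat2 2.0.13, Cufflinks 2.2.1 and the build Sscrofa11.1. The smallest value above 0 was 0.01, the rounding limit, so reads were not recovered, depth is unknown, and no count test was run.

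From the 4 libraries, log2(FPKM + 1) was fitted with limma 3.58.1 in R 4.3.3 (eBayes with a variance trend) over all 8541 genes that reached 1 FPKM in 2 libraries or more, with Benjamini-Hochberg adjustment. The fit was first tested on simulated data. All 10 subunits are named, and the pathway and marker lists were written by hand. The subunits and lists were chosen with earlier results of these data known. Coordinates are those of the RefSeq table of Sscrofa11.1, matched by gene identifier, which held all 16050 genes with values. Alternatives were the pseudocount, the filter, scaling, the variance trend, the authors' means and leaving out each library. The set without ANAPC2 and the differences relative to all genes were added after the data were seen.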

Additional observations from a re-analysis of the deposited data

How the results depend on the processing

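No paired analysis was possible because the groups share only replicate number 1. Genes past an adjusted p of 0.05 numbered 0 under every scaling, filter, pseudocount and trend setting run, and ranged from 0 to 1755 when 1 library was left out, with 186 without Cu 1 and 1755 without Cu 3. Genes at an unadjusted p of 0.05 numbered 599 and ranged from 127, without Control 1, to 2958, without Cu 3. Of the 599, 79.6% were higher, against 55.6% after quantile normalization and 58.0% after median-of-ratios scaling, which moved the median of all genes from 0.163 to -0.049 and -0.042. The median over the subunits was 0.165, or -0.100 and -0.018 after quantile normalization and median-of-ratios scaling and 0.005 from the authors' means, and it ranged from -0.330 to 0.091 without 1 library. Small minus large subunits kept its sign in every alternative run, and under quantile normalization it leaves out ANAPC2. Its moves were smaller than its SD within groups. When 1 of 2 libraries in a group is left out, the move cannot exceed that SD. Those runs therefore say nothing on this point. Of the 108 values of single subunits under other settings, 7 reversed, all of ANAPC5, ANAPC7 or CDC27. ANAPC5 was -0.10 after quantile normalization and -0.02 after median-of-ratios scaling. Without 1 library ANAPC5 ranged from -0.41 to 0.74, ANAPC7 from -0.16 to 0.88 and CDC27 from -0.90 to 0.09. Of 132 such values of the other named genes 20 reversed, and the remaining ones kept their sign. Scaling to equal sums gave -0.05 for ANAPC15, -0.03 for FBXO43 and -0.05 for PTTG1, quantile normalization gave -0.12, -0.12 and -0.05, median-of-ratios scaling gave -0.22, -0.20 and -0.23, and subtracting the median of all genes gave -0.14, -0.12 and -0.15. The authors' means gave -0.08 for FBXO43 and -0.06 for PTTG1. Without 1 library ANAPC15 ranged from -0.07 to 0.12, CDC20 from -0.98 to 0.42, FBXO43 from -0.22 to 0.30 and PTTG1 from -0.21 to 0.24. The cause was not tested. Unknown depth limits what can be said of ANAPC2 and CDC23.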

Other observations

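ANAPC15 and ANAPC16 were the steadiest subunit transcripts over the 4 libraries, which was noticed after their values were seen. The highest library exceeded the lowest 1.15-fold for ANAPC15 and 1.20-fold for ANAPC16. The range of log2(FPKM + 1) was 0.20 for ANAPC15, smaller than in all but 1.6% of the tested genes, and 0.26 for ANAPC16, at the 3.4th percentile. The 9 tested chosen subunits had ranges between 0.57 (ANAPC1, at the 23.8th percentile) and 1.42 (ANAPC4, at the 78.9th percentile).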
